A study of Caenorhabditis elegans with 4 samples.

Results

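The genes described here are 10 components of synaptic vesicle release and of neuropeptide processing, chosen by name as rab-3, snb-1, snt-1, unc-64, ric-4, unc-10, unc-104, egl-3, egl-21 and sbt-1, and all 10 were present among the 14463 genes of the count table. They were measured in 4 QuantSeq libraries of sorted Caenorhabditis elegans muscle cells, 2 from mir-1(luc108) embryos and 2 from wild-type embryos, at the 1.5-fold stage. The mutant strain lacks the sequence of the mir-1 hairpin, which encodes a muscle microRNA. Both strains carry lucEx1207(myo-3p::YFP), an array that expresses a yellow fluorescent protein (YFP) from the promoter of myo-3, a myosin gene of body-wall and other non-pharyngeal muscle, and about 5000 YFP-positive cells were collected per library by fluorescence-activated cell sorting. QuantSeq reads the 3′ end of polyadenylated mRNA, and each cDNA carries a unique molecular identifier (UMI), so that amplified copies are counted once. Totals were 453341 and 343227 UMI counts for mir-1(luc108), and 245336 and 424968 for wild type. A single UMI count was worth between 2.27 and 4.27 normalized counts (CPM, the count scaled to the total of UMI counts on the 5111 genes that passed the filter on low counts, with TMM factors), the larger value applying to the first wild-type library. The study calls the libraries of each genotype biological duplicates, the labels do not say at which step they were separated, and the p-values below measure the spread between these libraries.

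Neurons release neurotransmitter from small synaptic vesicles and neuropeptides from dense core vesicles. Fusion of a vesicle needs a SNARE protein on the vesicle and its partners on the plasma membrane, together with a calcium sensor and the scaffold of the active zone, while a kinesin carries vesicle precursors along the axon. Neuropeptides are cut out of larger precursors by a convertase and trimmed by a carboxypeptidase inside the dense core vesicle. Embryos at the 1.5-fold stage are in the course of building their nervous system, and the cells sorted here were selected as muscle. The measurement therefore concerns how much transcript of a neuronal program was counted in a muscle sort, and whether that amount differed between genotypes.

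The 10 genes were a small part of each library, and the share of all neuronal transcripts was not measured. They summed to 244 and 147 UMI counts in the mir-1(luc108) libraries, against 97 and 222 in the wild-type libraries. This was 0.0538% (exact Clopper-Pearson 95% interval 0.0473 to 0.0610%) and 0.0428% (0.0362 to 0.0503%) of all UMI counts in mir-1(luc108), against 0.0395% (0.0321 to 0.0482%) and 0.0522% (0.0456 to 0.0596%) in wild type. These and all later intervals on single libraries cover counting error only. The libraries did not part by genotype, since the lowest and the highest sum in CPM, 414 and 569, were both from wild type. In sorted bulk samples, fewer cells of a type and less RNA per cell cannot be told apart. In the same libraries, 16 body-wall muscle genes, among them the myosin heavy chain gene unc-54 and the paramyosin gene unc-15, summed to 19020 and 17164 CPM in mir-1(luc108), against 25829 and 23963 CPM in wild type.

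Among the genes of the vesicle itself, snb-1 had the most counts. QuantSeq yields about a single tag per transcript, at its 3′ end, and the counts were not divided by transcript length. snb-1 (WBGene00004897, chromosome V of WBcel235 from 6655562 to 6656501) encodes synaptobrevin, the SNARE of the vesicle membrane. It had 85 and 51 UMI counts in mir-1(luc108), against 39 and 66 in wild type, or 193 and 161 CPM against 166 and 169 CPM. The libraries overlapped, and the difference was smaller than the spread within mir-1(luc108), at 177 ± 22.7 CPM against 168 ± 1.80 CPM (SD, n = 2 each). The quasi-likelihood test of edgeR, adjusted by Benjamini-Hochberg over all genes tested, gave a log2 fold change of 0.085 ± 0.24 (SE; adjusted p = 0.968), and its 95% interval, from a fold of 0.751 to 1.50, was the narrowest among the 7 of the 10 genes that were tested.

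rab-3 and snt-1 were counted far less often. rab-3 (WBGene00004267, chromosome II from 5721767 to 5727853) encodes the small GTPase of synaptic vesicles. It had 8 and 2 UMI counts in mir-1(luc108), against 3 and 11 in wild type. The ratio of the summed counts, scaled for depth, was 0.590 (exact 95% Poisson interval 0.234 to 1.43), and the libraries of the genotypes overlapped. snt-1 (WBGene00004921, chromosome II from 6810963 to 6816433) encodes synaptotagmin, the calcium sensor of release. It had 8 and 3 UMI counts in mir-1(luc108), against 2 and 17 in wild type, a ratio of 0.478 (interval 0.205 to 1.06). The second wild-type library held the highest count of both genes, and leaving it out turned the log2 ratio of snt-1, −1.07, to 0.76 and that of rab-3, −0.76, to 0.040. Leaving out the first mir-1(luc108) library moved them the other way, to −1.70 for snt-1 and −1.84 for rab-3. Neither gene passed the filter on low counts, and neither was tested.

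The SNAREs of the plasma membrane differed in how even they were. unc-64 (WBGene00006798, chromosome III from 13277258 to 13283887) encodes syntaxin. It had 19 and 15 UMI counts in mir-1(luc108), against 12 and 18 in wild type, or 43.2 and 47.4 CPM against 51.2 and 46.1 CPM. These values overlapped and lay within a narrow range, with a log2 fold change of −0.097 ± 0.38 (SE; edgeR adjusted p = 0.977). ric-4 (WBGene00004364, chromosome V from 10261131 to 10270314) encodes the other plasma membrane SNARE. It had 8 and 8 UMI counts in mir-1(luc108), against 2 and 15 in wild type, a ratio of 0.777 (interval 0.367 to 1.64) with no test. Both mir-1(luc108) libraries lay between the wild-type libraries, and the log2 ratio of ric-4 was −0.36, and became 1.30 when the second wild-type library was left out and −0.85 when the first was.

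The scaffold of the active zone and the vesicle motor were at similar levels to each other. unc-10 (WBGene00006750, chromosome X from 7272317 to 7280322) encodes RIM, which organizes vesicles at release sites. It had 19 and 8 UMI counts in mir-1(luc108), against 7 and 15 in wild type, or 43.2 and 25.3 CPM against 29.9 and 38.4 CPM. The mir-1(luc108) libraries enclosed both wild-type libraries, and the log2 fold change was 0.013 ± 0.45 (SE; edgeR adjusted p = 0.997). unc-104 (WBGene00006831, chromosome II from 6994987 to 7010625) encodes the kinesin that carries synaptic vesicle precursors. It had 16 and 11 UMI counts in mir-1(luc108), against 7 and 14 in wild type, or 36.4 and 34.7 CPM against 29.9 and 35.9 CPM. Its log2 fold change was 0.089 ± 0.44 (SE; edgeR adjusted p = 0.980), with means that differed by less than the spread of the wild-type libraries.

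**Figure D1:**
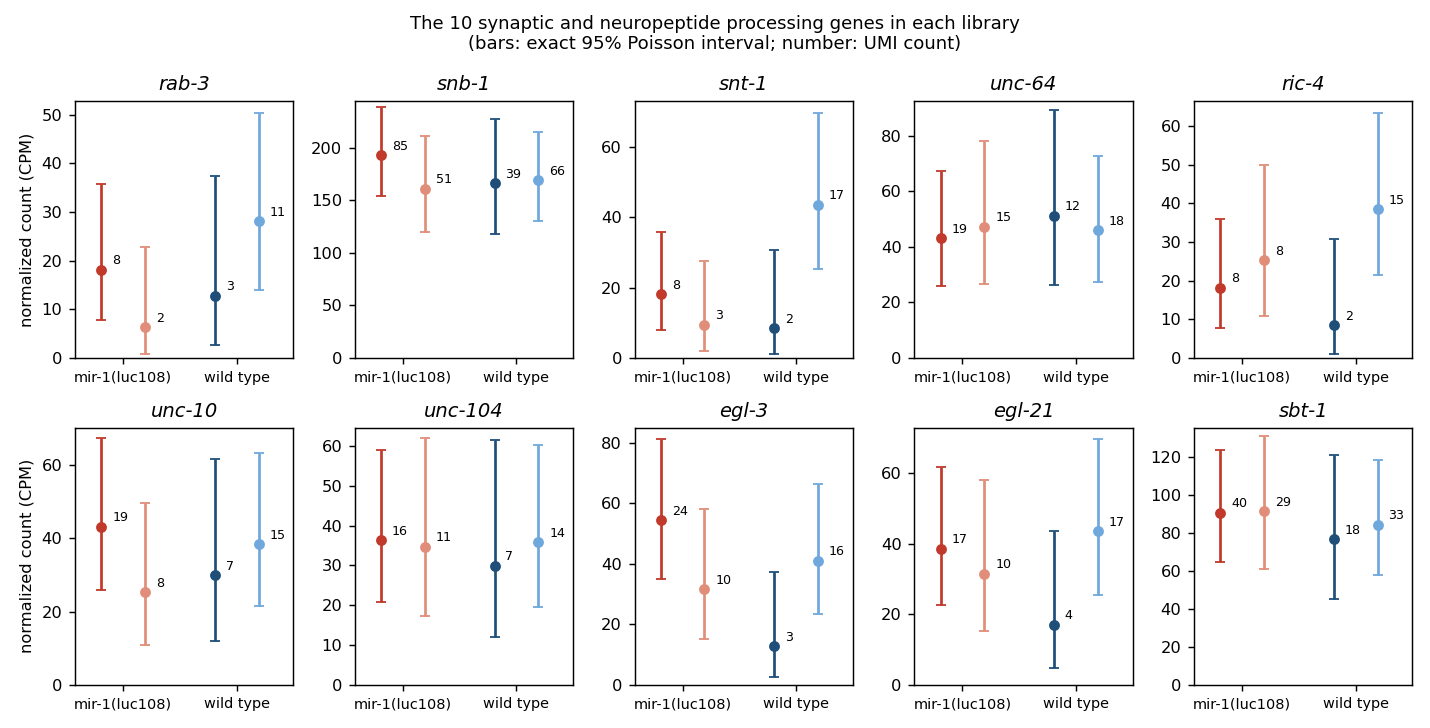
Normalized counts (CPM, vertical axis from 0) of the 10 genes in each library, with mir-1(luc108) libraries (red) left of wild-type libraries (blue), exact 95% Poisson intervals as bars and the UMI count beside each point. The intervals overlap between the libraries of each genotype for every gene. The lowest point is in the first wild-type library for snt-1, ric-4, egl-3, egl-21, unc-104 and sbt-1, with 2, 2, 3, 4, 7 and 18 UMI counts. Of all genes tested, 28.6% are lowest in that library.

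Among the 3 peptide processing genes, egl-3 had the largest fold change of the 7 members tested, and it did not pass the test. egl-3 (WBGene00001172, chromosome V from 10169177 to 10173753) encodes a proprotein convertase that cleaves neuropeptide precursors. It had 24 and 10 UMI counts in mir-1(luc108), against 3 and 16 in wild type, or 54.5 and 31.6 CPM against 12.8 and 40.98 CPM. The first wild-type library was lowest and the first mir-1(luc108) library highest, while the other libraries lay between them in the opposite order of genotype. The log2 fold change was 0.57 ± 0.49 (SE; unadjusted p = 0.261, edgeR adjusted p = 0.838), with an interval from a fold of 0.728 to 3.02. Its size rested on those 2 libraries, with a log2 fold change of 0.13 when the first wild-type library was left out, 1.76 when the second was and 0.093 when the first mir-1(luc108) library was.

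egl-21 (WBGene00001189, chromosome IV from 10478442 to 10481844) encodes the carboxypeptidase that removes basic residues after the cut made by the convertase. It had 17 and 10 UMI counts in mir-1(luc108), against 4 and 17 in wild type, or 38.6 and 31.6 CPM against 17.1 and 43.5 CPM. Both mir-1(luc108) libraries lay between the wild-type libraries, and the log2 fold change was 0.10 ± 0.48 (SE; edgeR adjusted p = 0.979). Its sign turned to −0.28 when the first wild-type library was left out, and to −0.063 when the first mir-1(luc108) library was, while it was 1.03 when the second wild-type library was. sbt-1 (WBGene00011392, chromosome V from 20827715 to 20828881) encodes a chaperone of the convertase. It had 40 and 29 UMI counts in mir-1(luc108), against 18 and 33 in wild type, or 90.9 and 91.5 CPM against 76.8 and 84.5 CPM. sbt-1 was the single gene of the 10 whose libraries did not overlap between genotypes, and its log2 fold change was 0.17 ± 0.30 (SE; edgeR adjusted p = 0.946). Libraries part in this way for 38.3% of all genes tested in either direction, and for 19.5% with mir-1(luc108) higher. Among the 7 members tested, sbt-1 was the 1 that did, which is not above the background.

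Of the 10 genes, 7 passed the filter on low counts, and rab-3, ric-4 and snt-1 did not. In edgeR's test an adjusted p below 0.05 was reached by none of the 7, against 0.0587% of all 5111 genes tested, and none had an unadjusted p below 0.05, against 8.2% of all genes. DESeq2, run on the same 5111 genes, likewise called none of the 7, none of which had an unadjusted p below 0.05 there. It called 0 of the 5111 genes, 101 of which had an unadjusted p below 0.05. Among the 7, 6 had a log2 fold change above 0, a sign shared by 50.3% of all genes tested, and the exception was unc-64. The 3 genes under the filter were all below 0 in the log2 ratio of summed counts, at −0.76, −0.36 and −1.07 for rab-3, ric-4 and snt-1. The median log2 fold change of the 7 was 0.089, beside 0.0030 over all genes tested after scaling. Over all 10 the median log2 ratio of summed counts was 0.052. The interval of each of the 7 included no change, and the upper bounds ran from a fold of 1.50 for snb-1 to 3.02 for egl-3.

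**Figure D2:**
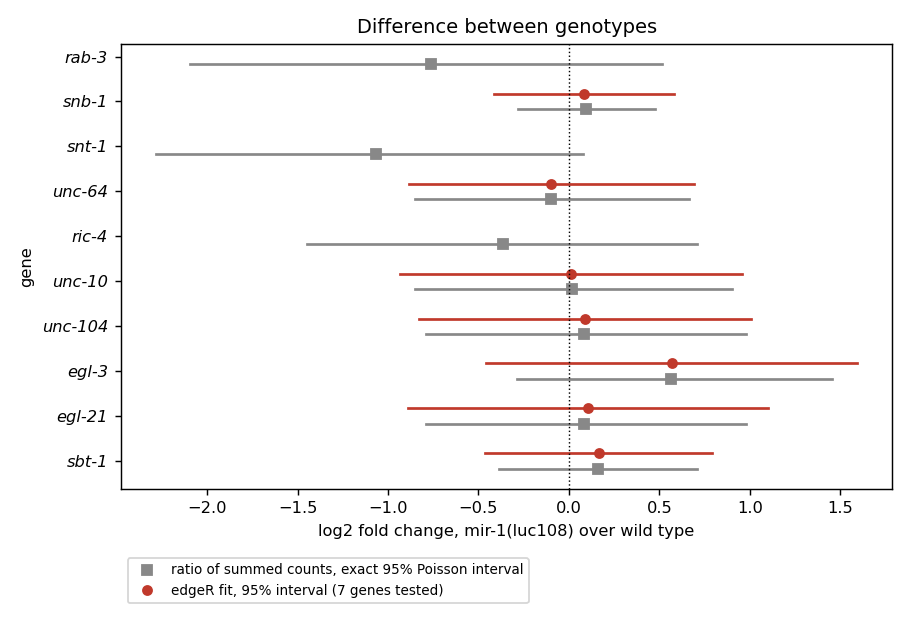
Log2 fold change of each gene, mir-1(luc108) over wild type (horizontal axis), from the edgeR fit for the 7 genes tested (red circles, 95% interval) and as the ratio of summed counts for all 10 (gray squares, exact 95% Poisson interval). Every interval crosses 0, and snt-1, at a log2 ratio of −1.07, and egl-3, at 0.57, lie farthest to either side.

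Summed over the 10 genes, normalized counts were 509 ± 63.9 CPM in mir-1(luc108) and 491 ± 109 CPM in wild type (SD, n = 2 each), a log2 ratio of 0.052. When single libraries were left out, this ratio ran from −0.15 to 0.29, so that its sign was not fixed by the data. With 2 libraries of each genotype the labels can be permuted into 3 distinct pairings, and an exact permutation test could not reach p = 0.05. The peptide processing genes summed to 184 and 155 CPM in mir-1(luc108), against 107 and 169 CPM in wild type. The vesicle genes summed to 229 and 177 CPM in mir-1(luc108), against 188 and 241 CPM in wild type, and the plasma membrane SNAREs to 61.3 and 72.6 CPM against 59.8 and 84.5 CPM. No group of genes by role parted the genotypes.

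The summed body-wall muscle counts of the genotypes did not overlap and were the lower ones in mir-1(luc108), with no test made of the sum. All 16 body-wall muscle genes had a log2 fold change below 0, with a median of −0.52, and 10 of them had an unadjusted p below 0.05 and none an adjusted p below 0.05 from edgeR. As a share of the summed body-wall muscle counts, the 10 genes came to 2.91 and 2.70% in mir-1(luc108), against 1.60 and 2.37% in wild type. By this measure the genotypes did not overlap, whereas in CPM they did. The denominator of the share, the summed muscle counts, had a mean of 18092 CPM in mir-1(luc108), against 24896 CPM in wild type. The mean sum of the 10 genes was 509 CPM in mir-1(luc108), against 491 CPM in wild type. No test was made of the share or of the part of the muscle genes in it.

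Summed over the 10 genes, the 2 wild-type libraries, at 414 and 569 CPM, differed by more than the genotype means, and the spread was not equal for every gene. Between the wild-type libraries, the second was higher than the first by a factor of 5.10 for snt-1, 4.50 for ric-4, 3.20 for egl-3, 2.55 for egl-21 and 2.20 for rab-3. For the other genes the same ratio was 1.29 for unc-10, 1.20 for unc-104, 1.10 for sbt-1, 1.02 for snb-1 and 0.900 for unc-64. These ratios describe the 2 libraries, and no test was made of them.

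In total, 7 of the 10 genes, namely snt-1, ric-4, egl-3, egl-21, rab-3, unc-10 and unc-104, had between 24 and 53 UMI counts, a range set by the 5 with the highest ratios. Of the 2344 genes of the table in that range, 17.3% were at least 2 times higher in the second wild-type library than in the first, 7.94% at least 3 times and 5.33% at least 4 times. Of the 7, 5 were past the first limit, 3 past the second and 2 past the third. Because the range followed from these ratios, the counts are no test of an excess.

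The sums of intestinal and pharyngeal muscle genes were also higher in the second wild-type library than in the first, though not for every gene. The 8 intestinal genes, led by the protease gene asp-1, summed to 268 and 300 CPM in mir-1(luc108), against 124 and 415 CPM in wild type. Of the 8, 5 were higher and 3 lower in the second wild-type library, and without asp-1 the sums were 191 and 193 CPM in mir-1(luc108), against 98.2 and 179 CPM in wild type. The 7 pharyngeal muscle genes, led by tni-4, summed to 234 and 177 CPM in mir-1(luc108), against 196 and 487 CPM in wild type, and 6 were higher in the second wild-type library while ceh-22 was lower. The 13 hypodermal genes summed to 2679 and 3078 CPM in mir-1(luc108), against 2758 and 2715 CPM in wild type. The sums of 4 of the 8 other neuronal lists, described below, were higher in the second wild-type library. The ratio of second to first was 1.31 for peptide processing and dense core vesicles and 1.29 for FMRFamide-like peptides. It was 1.07 for the active zone, 1.02 for neurotransmitter genes, 0.998 for vesicle release and 0.922 for the pan-neuronal list. Identity factors were at 0.859 and axonal transport at 0.847. Whether cells of other tissues in the sort had a part in the ratios of the neuronal genes was not tested.

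**Figure D3:**
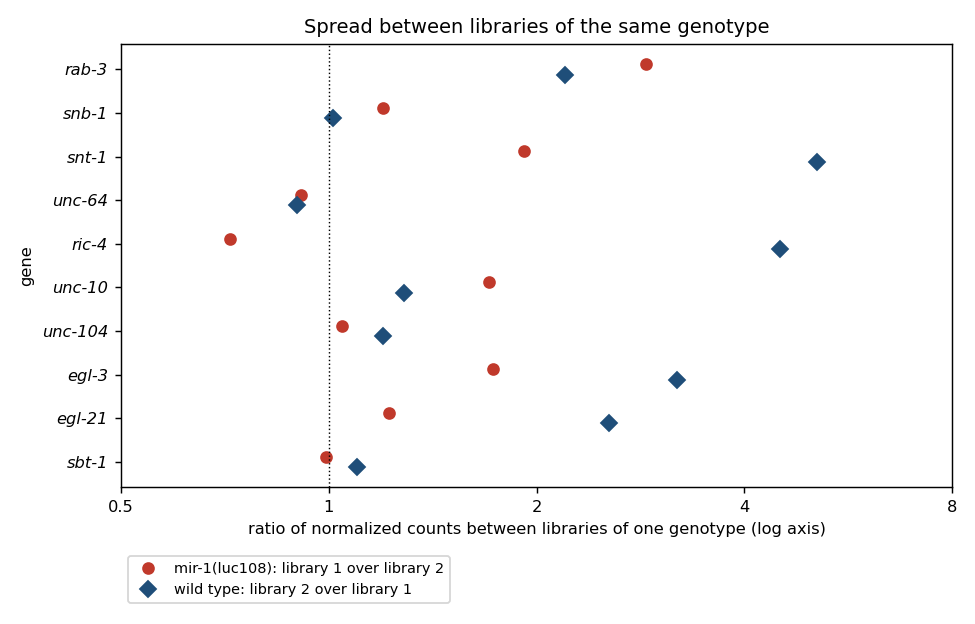
Ratio of normalized counts between the libraries of one genotype (horizontal axis, log scale) for each gene, as library 1 over library 2 of mir-1(luc108) (red circles) and library 2 over library 1 of wild type (blue diamonds). The wild-type ratio is 2.20 or more for rab-3, snt-1, ric-4, egl-3 and egl-21 and at most 1.29 for the other genes.

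The shares of single genes within the counts of the 10 genes varied in the same libraries. snb-1 made up 34.8 and 34.7% of the UMI counts of the 10 genes in mir-1(luc108), against 40.2 and 29.7% in wild type, and sbt-1 made up 16.4 and 19.7%, against 18.6 and 14.9%. snb-1 had its largest share in the first wild-type library, which held the fewest counts of the 10 genes. egl-3 made up 9.84 and 6.80% in mir-1(luc108), against 3.09 and 7.21% in wild type, and snt-1 made up 3.28 and 2.04%, against 2.06 and 7.66%. The convertase and its chaperone were counted 24 and 40 times in the first mir-1(luc108) library and 10 and 29 times in the second, against 3 and 18 times in the first wild-type library and 16 and 33 times in the second. Whether the ratio of the 2 genes differed between libraries was not tested at these counts.

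Further genes were counted in 8 lists on synapses, axonal transport, neurotransmitters, neuropeptides, pan-neuronal genes and neuronal identity. Whether each gene is confined to neurons was not assessed. Together the lists held 126 genes of the table, 40 of them with 10 or fewer UMI counts over all libraries. Of the 54 that passed the filter, none had an adjusted p below 0.05 from edgeR, the smallest being 0.226. An unadjusted p below 0.05 was found for 6 of them, or 11.1%, beside 8.2% of all genes, with 2 above and 4 below 0, and the median log2 fold change over the 54 was −0.061. The 30 genes for FMRFamide-like peptides, substrates of the processing enzymes, summed to 527 and 448 CPM in mir-1(luc108), against 414 and 533 CPM in wild type. They were led by flp-10, at 65.9 and 129 CPM in mir-1(luc108), against 68.3 and 71.7 CPM in wild type, and flp-1, at 63.6 and 28.4 CPM against 64.04 and 43.5 CPM. Of the 5 peptide genes tested, 3 were above 0 and 2 below, and none had an unadjusted p below 0.05.

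Among 19 genes for vesicle release and endocytosis, 9 were tested, 4 above and 5 below 0. The gene with the most counts was unc-13, which encodes a factor that primes vesicles for fusion. It had 26 and 14 UMI counts in mir-1(luc108), against 29 and 40 in wild type, or 59.1 and 44.2 CPM against 124 and 102 CPM. The genotypes did not overlap, as for 38.3% of all genes tested, and the log2 fold change was −1.08 ± 0.32 (SE; unadjusted p = 0.00318, edgeR adjusted p = 0.226). unc-18, whose product binds syntaxin, had 13 and 7 UMI counts in mir-1(luc108), against 13 and 19 in wild type, with a log2 fold change of −0.96 ± 0.43 (SE; edgeR adjusted p = 0.580). unc-18 and the 4 further genes given next were named after their values were seen, as those with an unadjusted p below 0.05. unc-64, the gene of its partner, was at −0.097, and whether the 2 genes differed in their fold change was not tested.

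In the list for axonal transport, 13 genes of which 11 were tested, 4 were above and 7 below 0. unc-116, which encodes the heavy chain of conventional kinesin, had 14 and 9 UMI counts in mir-1(luc108), against 16 and 21 in wild type, with a log2 fold change of −0.97 ± 0.40 (SE; edgeR adjusted p = 0.515). unc-104, the other kinesin described here, was at 0.089. The active zone list of 8 genes held 6 tested, 3 on either side of 0, and syd-2, which encodes liprin, was at 241 and 237 CPM in mir-1(luc108), against 239 and 238 CPM in wild type. Its log2 fold change was 0.0020 ± 0.22 (SE), from about 330 UMI counts in all.

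Of 16 further genes for peptide processing and dense core vesicles, 6 were tested, 1 above and 5 below 0. The one above was hid-1, which encodes a factor for dense core vesicle maturation. It had 29 and 21 UMI counts in mir-1(luc108), against 6 and 12 in wild type, or 65.9 and 66.3 CPM against 25.6 and 30.7 CPM, with a log2 fold change of 1.19 ± 0.39 (SE; unadjusted p = 0.00635, edgeR adjusted p = 0.311). The genotypes did not overlap, as for 38.3% of all genes tested, and the difference did not pass the adjusted threshold. The convertase genes bli-4 and kpc-1, relatives of egl-3, were at 184 and 227 CPM in mir-1(luc108), against 171 and 251 CPM in wild type, and at 77.3 and 44.2 CPM against 76.8 and 92.2 CPM.

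**Figure D4:**
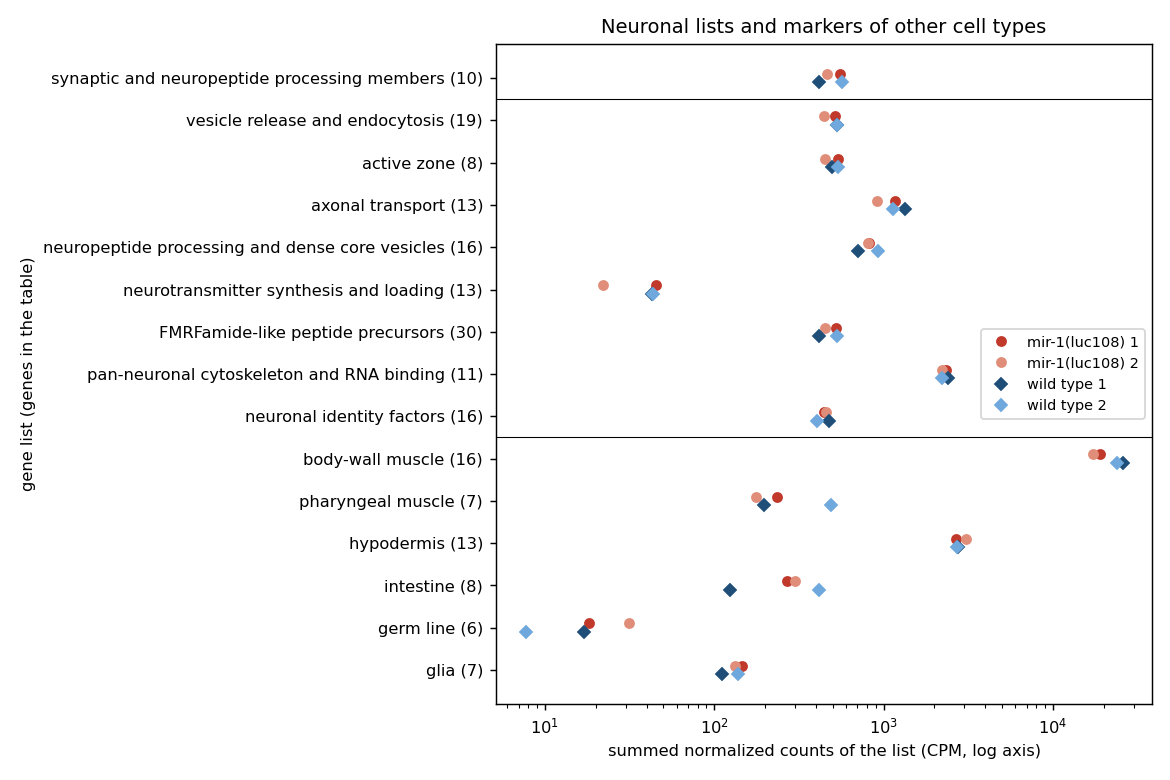
Summed normalized counts (CPM, horizontal log axis) of the 10 genes, of 8 other neuronal lists and of 6 lists of cell type markers, with the number of genes in the table in brackets and the 4 libraries as points (circles, mir-1(luc108); diamonds, wild type). The body-wall muscle sums, between 17164 and 25829 CPM, exceed those of the 10 genes, between 414 and 569 CPM, in every library, and the intestinal and pharyngeal sums are highest in the second wild-type library.

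The neurotransmitter and pan-neuronal lists were not counted at like levels. The 13 genes for making and loading neurotransmitters had 54 UMI counts in all, and none of them was counted in every library. The most counted were unc-25, which encodes the enzyme that makes GABA, with 13 UMI counts over the 4 libraries, eat-4, a glutamate transporter gene, with 11, and tdc-1, which encodes a tyrosine decarboxylase, with 5. The 11 genes for the pan-neuronal cytoskeleton and RNA binding, by contrast, had 3168 UMI counts. Of these, unc-44, an ankyrin gene, had 1685, and unc-33 had 410. rgef-1 of the same list, named here for its low count, had 4. Whether the counts of this list came from neurons was not tested. unc-119, widely used as a neuronal marker, had 113 and 65 UMI counts in mir-1(luc108), against 34 and 53 in wild type, or 257 and 205 CPM against 145 and 136 CPM. Its log2 fold change was 0.73 ± 0.24 (SE; unadjusted p = 0.00637, edgeR adjusted p = 0.311). The genotypes did not overlap for unc-119, as for 38.3% of all genes tested. unc-75, which encodes a neuronal RNA-binding protein, was on the other side, with 5 and 5 UMI counts in mir-1(luc108), against 9 and 13 in wild type (log2 fold change −1.39 ± 0.58, SE; edgeR adjusted p = 0.520).

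The sums of further lists are given next. The lists differ in their number of genes, so the sums depend on which genes were listed. From which cells these counts, or those of the synaptic and peptide processing genes, came was not tested. Among 16 neuronal identity factors, which are transcription factors, the sum was 448 and 458 CPM in mir-1(luc108), against 474 and 407 CPM in wild type, led by zag-1, ast-1 and unc-42. The 7 glial markers summed to 145 and 133 CPM in mir-1(luc108), against 111 and 138 CPM in wild type, and 6 germ line genes to 18.2 and 31.6 CPM, against 17.1 and 7.68 CPM. The hypodermal genes, led by the collagen gene sqt-3 at 1372 and 1585 CPM in mir-1(luc108), against 1481 and 1373 CPM in wild type, were the most abundant of the markers outside body-wall muscle. None of the genes tested in these lists had an adjusted p below 0.05 from edgeR.

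The gene models leave some of the counts open to neighbors. rab-3 overlaps damt-1, unc-64 overlaps set-25 and sbt-1 overlaps grl-14, each on the opposite strand, and the strand setting of the counting is not given in the sources used here. set-25 had 13 UMI counts in all and grl-14 had 4, beside 64 for unc-64 and 120 for sbt-1. snb-1 has syx-18 close downstream on the same strand, with 36 UMI counts in all beside 241 for snb-1. unc-10 has F46H5.11 at 248 bp downstream on the same strand, for which no counts are given here. The longest annotated transcript ran from 791 bp for sbt-1 to 5502 bp for unc-104.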

How the data were processed

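The deposited values are UMI counts per gene, without normalization. According to the methods and the submitters' processing notes, UMI-tools (UMI extraction and removal of duplicates), STAR (mapping of trimmed reads to WBcel235) and HTSeq (counting) were used by the authors; their versions and annotation release are not given in the sources used here. All 4 columns were matched to samples by the labels. Genotypes were compared with edgeR 4.0.16 (quasi-likelihood test, TMM factors, filterByExpr with a minimum count of 10, library sizes over the genes kept) in R 4.3.3, with Benjamini-Hochberg adjustment over 5111 genes and a threshold of 0.05. DESeq2 1.42.0 was an alternative, as were other scalings, no filter, a replicate block and leaving out each library. The edgeR script was tested on simulated data. CPM of genes under the filter use the same scaling. Genes under the filter were given as ratios of summed counts with exact Poisson intervals (scipy 1.17.1). Coordinates are from the Ensembl 115 annotation of WBcel235.

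The 10 genes and all lists were chosen with earlier results of these data known. From each list the text names genes among the 3 with the highest mean CPM, neighbors of the 10 genes, and others as stated. The mir-1 gene and sequences were not analysed here. Depth ranged from 245336 to 453341 UMI counts per library.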

Additional observations from a re-analysis of the deposited data

How the results depend on the processing

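No setting gave any of the 7 tested genes an adjusted p below 0.05. The count of all genes called, 3 in the edgeR fit, was 5 with DESeq2 size factors, 63 with no filter on low counts, 0 with the DESeq2 test and 87 with a replicate block, and between 0 and 66 with a library left out; the cause was not tested. The library numbers pair nothing by the labels, and deviations of libraries with the same number correlated at −0.012 over genes; with the replicate block the log2 fold change of unc-10 was −0.036, and no call among the 10 genes changed. With each library left out in turn, the log2 fold change lay between −0.074 and 0.20 for snb-1, −0.28 and 1.03 for egl-21, −3.67e-05 and 0.25 for unc-104, −0.47 and 0.30 for unc-10, −1.84 and 0.040 for rab-3, −0.85 and 1.30 for ric-4, and −1.70 and 0.76 for snt-1, so that each of these 7 changed its sign. Those of sbt-1 (0.12 to 0.24), egl-3 (0.093 to 1.76) and unc-64 (−0.19 to −0.026) kept theirs. Where 1 library of a genotype remained, its spread was taken to equal that of the other genotype. The genes rab-3, ric-4 and snt-1 did not pass the filter, with 24, 33 and 30 UMI counts in all. unc-75, with 32 in all, did pass it, so the total alone did not decide this.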
